A study of Mus musculus with 10 samples.

Results

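Mitosis genes here are 43 mouse genes that cells switch on as they approach and pass through division, chosen by gene name. All 43 have a row among the 53656 genes counted. They comprise 6 kinases, cyclins and partners that start mitosis, 3 subunits of the chromosomal passenger complex, 7 genes of the spindle checkpoint and of the ubiquitin pathway that ends mitosis, 6 centromere and kinetochore genes, 10 spindle motors and microtubule proteins, 4 genes of the central spindle and cytokinesis, and 7 genes of chromosome structure.

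The series holds 10 RNA libraries of SMARTA CD4 T cells, which carry a transgenic T cell receptor (SMARTA). The cells were transferred as naive cells into cytoxan-treated B6 mice bearing tumours of B16 melanoma cells, named B16-GP61. They were sorted on day 11 from the tdLN, the tumour-draining lymph node. The 6 TOX KO libraries came from Ly5.1+ Ly5.2- cells in the PD1lo LAG3lo CD39lo gate. The 4 TOX WT libraries came from Ly5.1+ Ly5.2+ cells in the PD1hi LAG3hi CD39hi gate. TOX is an HMG-box nuclear factor of activated and exhausted T cells. Both groups shared the receptor transgene, the tumour and the cytoxan treatment. Genotype, congenic marker and sort gate differ together, so their effects cannot be told apart. The labels do not say how TOX was removed or which animals, single or pooled, gave each replicate, and p-values reflect only how far these libraries vary, which may be technical.

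Entry into mitosis is driven by the kinase CDK1 bound to cyclins A and B. The mRNAs of many mitotic proteins rise together late in the cell cycle, when the repressive DREAM complex leaves their promoters and B-MYB and FOXM1 act there, often at elements named CHR and at NF-Y (CCAAT) boxes. Activated CD4 T cells divide quickly, so these mRNAs are commonly read as a sign of cycling cells. In bulk libraries, fewer cycling cells and less of the mRNA per cell cannot be told apart.

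Of 4 genes at the start of mitosis, Cdk1 and Ccnb1 passed the test below. Ccnb2 and Plk1 did not, though their fold changes were also negative. Whether promoter elements bear on this was not tested. The promoters of these 4 genes are shown. Each runs from 250 bases before to 50 bases after the annotated start, 5′ to 3′ on the gene's strand (RefSeq, GRCm38.p6). Capitals mark every TTTGAA or TTTAAA (the CHR element and a variant of it) and every CCAAT, on either strand, so that the reverse complement of CCAAT is also in capitals.
Cdk1, chr10:69352863-69353162, minus strand: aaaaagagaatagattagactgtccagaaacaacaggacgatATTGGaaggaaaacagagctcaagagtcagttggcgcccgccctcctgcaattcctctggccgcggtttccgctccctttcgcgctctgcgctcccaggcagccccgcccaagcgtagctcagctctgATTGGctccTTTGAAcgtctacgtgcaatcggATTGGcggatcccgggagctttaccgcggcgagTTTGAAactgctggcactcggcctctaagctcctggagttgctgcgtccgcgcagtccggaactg
Ccnb1, chr13:100786437-100786736, minus strand: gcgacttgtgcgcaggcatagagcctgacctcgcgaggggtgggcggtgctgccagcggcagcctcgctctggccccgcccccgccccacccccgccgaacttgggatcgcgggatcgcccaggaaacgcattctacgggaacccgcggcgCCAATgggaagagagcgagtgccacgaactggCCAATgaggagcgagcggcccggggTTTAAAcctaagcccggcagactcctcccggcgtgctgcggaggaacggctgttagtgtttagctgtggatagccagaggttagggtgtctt
Ccnb2, chr9:70421505-70421804, minus strand: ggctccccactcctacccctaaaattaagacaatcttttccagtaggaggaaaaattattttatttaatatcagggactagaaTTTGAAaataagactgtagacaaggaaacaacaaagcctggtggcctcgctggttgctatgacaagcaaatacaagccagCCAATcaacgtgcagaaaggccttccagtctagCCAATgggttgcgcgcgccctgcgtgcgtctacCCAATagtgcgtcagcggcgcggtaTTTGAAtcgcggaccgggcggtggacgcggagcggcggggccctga
Plk1, chr7:122159185-122159484, plus strand: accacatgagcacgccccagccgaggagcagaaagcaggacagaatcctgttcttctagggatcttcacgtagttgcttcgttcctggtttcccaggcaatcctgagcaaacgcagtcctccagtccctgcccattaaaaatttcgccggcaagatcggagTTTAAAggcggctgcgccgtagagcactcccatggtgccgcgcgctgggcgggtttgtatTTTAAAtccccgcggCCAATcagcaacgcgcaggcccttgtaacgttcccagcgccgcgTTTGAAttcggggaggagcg
The Cdk1 and Ccnb2 windows each held 2 TTTGAA and 3 CCAAT matches. The Ccnb1 window held 1 TTTAAA and 2 CCAAT matches and no TTTGAA. The Plk1 window held 1 TTTGAA, 2 TTTAAA and 1 CCAAT.

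Of the 43 genes, 37 had an entry in the RefSeq promoter table. TTTGAA was present in 30 of these 37 (81.1%), against 17.9% of all 32851 promoters of the same length. CCAAT was present in 30 of 37 (81.1%), against 37.4% of all promoters. Both stood in 26 of 37 (70.3%), against 6.95%. TTTAAA was present in 9 of 37 (24.3%), against 13.2%. TTTGAA lay within 50 bases of the start in 27 of 37 (73.0%), against 4.94% of all. None of the 3 was found in Nuf2 and Nusap1, 2 of 37, against 45.7% of all promoters. The searches covered both strands (TTTAAA reads the same on both), and a match is a description of these letters, not a bound site. Among the 8 genes in the table that were lower in KO by the test below (Stmn1 has no entry), Birc5 and Ccnb1 lacked TTTGAA, and Birc5 and Anln lacked CCAAT.

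Tox itself was lower in the KO libraries. Its level was 170, 357, 172 and 245 CPM (counts scaled to the library's TMM-adjusted total) in WT 1 to 4 and lay between 15.3 and 68.0 CPM in KO, with a log2 fold change of -2.93 (adjusted p = 0.0102, edgeR quasi-likelihood test). Depth was 31939816 to 45481478 counts in WT and 36028980 to 55784453 in KO. Libraries did not form uniform groups: WT 1 had 14365 genes with counts and the other WT libraries 19101 to 19775, and KO 1 to 3 had 15163 to 15873 against 16348 to 17304 in KO 4 to 6. The library names carry numbers, and WT 1 and KO 1 to 3 are those numbered 1 to 3, while WT 2 to 4 and KO 4 to 6 are numbered 4 to 8. The labels do not say what the numbers stand for.

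The libraries also differed in markers of other cells. The 12 T cell markers summed to 10526 to 20398 CPM in WT and 22578 to 28384 CPM in KO, without overlap. Their fold changes were positive for 10 of 12, and 1, Cd5, was higher in KO (1.65, adjusted p = 0.00895). The most abundant were the receptor chain Trac, at 2422 to 6855 CPM in WT and 4525 to 10822 CPM in KO, and the kinase Lck, at 2322 to 4032 and 4536 to 7144 CPM. The 7 NK cell markers summed to 21.6 to 90.0 CPM in WT and 169 to 275 CPM in KO, where Klrb1c was higher (2.81, adjusted p = 0.0123), while the values of the other 4 of 5 tested were negative and did not pass, with Gzma at -4.42 (adjusted p = 0.104). The 12 B cell markers, led by Cd79a and Cd79b, summed to 2783 CPM in WT 1, 6879 to 11218 CPM in WT 2 to 4 and 86.4 to 346 CPM in KO, with none at 0 across either group, and 9 of 12 were lower in KO. Of the plasma cell markers, led by Igkc and Ighg2c, 7 of 11 tested were lower, with sums of 7579 CPM in WT 1 and 57523 to 147511 CPM in WT 2 to 4 against 1050 to 1783 CPM in KO, where Tnfrsf17 was at 0. Of the myeloid and dendritic cell markers, 6 of 20 tested were lower in KO. Of the 2 most abundant, Lyz2 was among these 6 (-5.53, adjusted p = 0.0159) and Cst3 was not (-0.84, adjusted p = 0.314). The sums were 2197 to 8380 CPM in WT against 160 to 441 CPM in KO, where Clec9a was at 0. Of the germinal centre B cell markers, 2 of 8 tested were lower in KO, with 5 fold changes negative and 3 positive. The 2 most abundant, S1pr2 and Elk3, were not among the lower genes, with values of 0.56 and 0.52. The sums were 318 to 642 CPM in WT against 234 to 273 CPM in KO, where Rgs13 and Mybl1 were at 0. No marker of CD8 T cells (Cd8b1 and Cd8a), melanoma (led by Pmel and Mitf), red cells (Hbb-bs and Hba-a1) or stroma (Pecam1 and Pdgfrb) passed. The part of these cells in the results below was not tested.

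The summed level of the mitosis genes was 5166, 1644, 1597 and 2300 CPM in WT 1 to 4, and 402, 354, 481, 868, 623 and 545 CPM in KO 1 to 6. Every KO library lay below every WT library in this sum. The mean log2 CPM of the 43 genes was 3.96 ± 0.48 (SD, n = 4) in WT and 0.94 ± 1.05 (SD, n = 6) in KO. Among the WT libraries WT 1 held the highest sum but the lowest mean log2 CPM, 3.34 against 3.82 to 4.44, with 5 of the genes at 0 counts, and it had the lowest B cell and plasma cell marker sums. The mean log2 CPM of the 42 DNA replication genes was 5.35 ± 0.21 (SD, n = 4) in WT and 4.34 ± 0.39 (SD, n = 6) in KO.

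**Figure D1:**
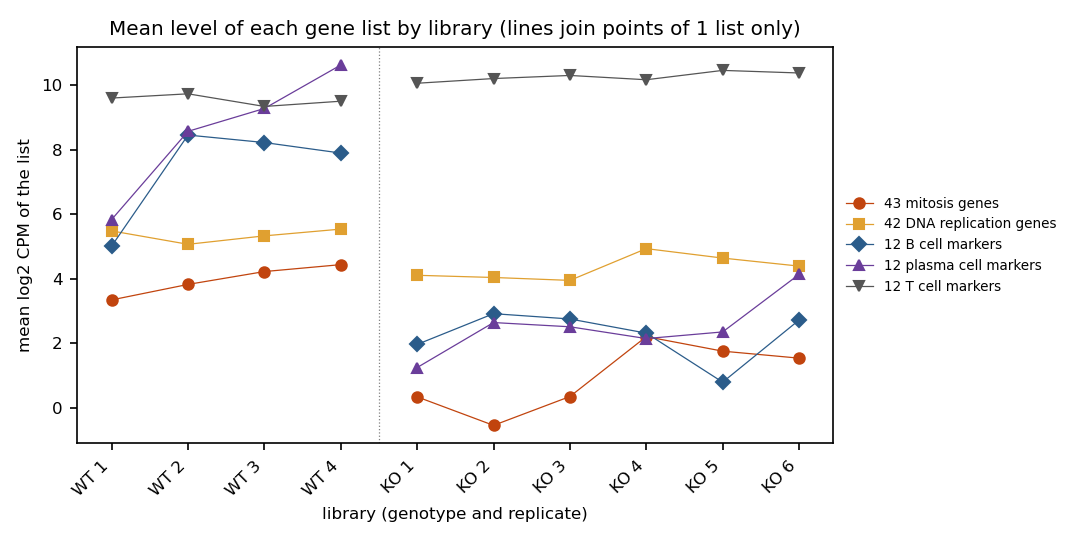
Mean log2 CPM of 5 gene lists in each library; each point is 1 list in 1 library, and the dotted line separates WT from KO. The mitosis genes lie at 3.34 to 4.44 in WT and at -0.55 to 2.20 in KO, and the B cell and plasma cell markers are lower in WT 1 than in WT 2 to 4.

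The test was applied to 42 of the 43 genes, since Hmmr did not pass the filter on low counts. Of these, 9 were lower in KO at an adjusted p under 0.05 and none was higher (edgeR quasi-likelihood test, Benjamini-Hochberg over 14214 genes). Over all genes tested, 2.70% were lower and 0.429% higher. At an unadjusted p under 0.05, 27 were lower and 1 higher, against 10.8% and 7.15% of all genes. The fold change was negative for 41 of 42, against 54.3% of all genes. Its median was -3.05, against -0.12 over all genes, and it was also -3.05 with Anln set to the bound given below. For 15 of 42 every KO library lay below every WT library, against 6.31% of all genes. The 9 genes were Cdk1, Ccnb1, Birc5, Cdca3, Aurka, Kif22, Stmn1, Anln and Hmgb2.

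Counts of genes that passed rested on single libraries. Without WT 4 only Cdk1 and Anln passed, when 0.977% of all genes were lower. Without WT 1, 13 genes were lower (7.90% of all genes) and 1, Smc4, was higher (2.92% of all genes). Without KO 3, 4 passed, and without KO 2, KO 6 or WT 2, 5 each. Over all genes, 281 were lower without KO 3, 262 without KO 2, 327 without KO 6 and 222 without WT 2. With all libraries 384 were lower. Cdk1 and Anln passed in all 10 fits that leave out a library, Birc5 in 9, Aurka in 8, Stmn1 in 6, Hmgb2 in 5, Cdca3 and Kif22 in 4 each, and Ccnb1 in 3. Without WT 1 the fold changes were -2.95 for Cdk1, -3.42 for Ccnb1, -3.19 for Birc5, -3.32 for Cdca3, -1.81 for Aurka, -1.90 for Kif22, -1.60 for Stmn1 and -1.51 for Hmgb2. DESeq2 called 22 genes lower, where 9.53% of all genes were, and 1 higher, Smc4, where 4.15% were.

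**Figure D2:**
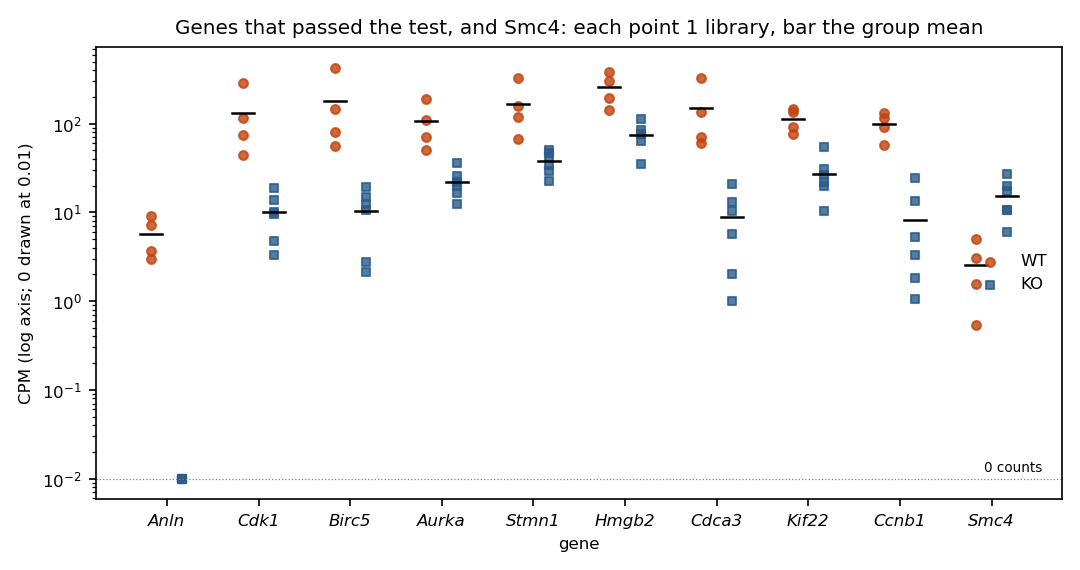
CPM on a log axis of the 9 genes lower in KO and of Smc4; circles are WT libraries, squares KO libraries, short bars group means, and 0 counts are drawn at 0.01. The 2 genotypes do not overlap for any of these genes. Smc4 is the only one with KO above WT and did not pass the test, and Anln has 0 counts in all 6 KO libraries.

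Among the kinases and cyclins of mitotic entry, 2 of 6 were lower in KO, and the median fold change of the 6 was -3.42. Cdk1, the kinase that drives mitotic entry (chromosome 10, 69335146 to 69352938, minus strand), was at 290, 74.6, 44.7 and 115 CPM in WT 1 to 4 and at a lowest 3.32, median 9.79 and highest 18.9 CPM in KO. WT 1 was highest, KO 1 and KO 2 lowest, and the groups did not overlap. Its log2 fold change was -3.70 (SE 0.62, adjusted p = 0.0113). Ccnb1 encodes cyclin B1, the main partner of CDK1 (chromosome 13, 100778650 to 100786570, minus strand). Its level was 132, 90.8, 57.4 and 116 CPM in WT, and 1.05, 4.28 and 24.4 CPM as lowest, median and highest in KO. The 3 KO libraries numbered 1 to 3 were the lowest, at 1.05 to 3.31 CPM. Its log2 fold change was -3.59 (SE 0.82, adjusted p = 0.0414), which rested on single libraries as given above, and also missed the threshold with scaling by total counts (adjusted p = 0.0564).

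Ccnb2, cyclin B2, had a mean level of 68.9 CPM per kilobase in WT, the highest of this group, and of 17.8 without WT 1, below Plk1 at 25.7. It was at 340 CPM in WT 1 and at 12.8, 46.8 and 22.0 CPM in the others, and at 1.47, 8.77 and 29.1 CPM as lowest, median and highest in KO. WT 1 stood far above the rest, and WT 2 and WT 4 lay within the KO range. Its log2 fold change of -3.26 (SE 0.98) did not pass (adjusted p = 0.116), and it was -1.30 without WT 1. Ccna2, cyclin A2, followed the same pattern: it reached 152 CPM in WT 1, at most 4.47 CPM in WT 2 to 4, and 1.24 to 4.99 CPM in KO, with a fold change of -3.94 (adjusted p = 0.111) that was -0.28 without WT 1. Part of its exons overlaps Exosc9 on the opposite strand, which counts without strand cannot separate. Plk1, the polo-like kinase of mitotic entry and spindle assembly, was at 101, 27.9, 75.4 and 66.1 CPM in WT and at 6.57, 12.9 and 30.4 CPM as lowest, median and highest in KO. Only WT 2 overlapped with KO. Its log2 fold change was -2.09 (SE 0.54, adjusted p = 0.0704). Cks2, a small binding partner of CDK1, had a value of -1.74 (adjusted p = 0.101).

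In the chromosomal passenger complex, which corrects chromosome attachment and directs cytokinesis, 1 of 3 genes was lower. Birc5, which encodes survivin (chromosome 11, 117849251 to 117855743, plus strand), was at 429, 81.0, 55.9 and 148 CPM in WT and at 2.12, 11.5 and 19.3 CPM as lowest, median and highest in KO. All WT libraries were above all KO libraries, and its log2 fold change was -4.11 (SE 0.76, adjusted p = 0.0174), which missed the threshold without WT 4 (adjusted p = 0.0540). Aurkb, the kinase of the complex, had a fold change of -2.82 (adjusted p = 0.0529), or -1.91 without WT 1. Cdca8, borealin, had one of -1.76 (adjusted p = 0.185), or -0.72 without WT 1.

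Among the 7 genes of the spindle checkpoint and of the anaphase-promoting complex pathway (APC/C, the ubiquitin ligase that ends mitosis), 1 was lower. Cdca3, a trigger of mitotic entry that is itself degraded through the APC/C (chromosome 6, 124829547 to 124833701, plus strand), was at 331, 70.9, 60.6 and 135 CPM in WT and at 0.998, 8.03 and 20.9 CPM as lowest, median and highest in KO. The groups did not overlap, and the log2 fold change was -4.07 (SE 0.84, adjusted p = 0.0269). Ube2c, the ubiquitin-conjugating enzyme of the APC/C, had a fold change of -4.03 (adjusted p = 0.0546) with no overlap between groups, which was -2.37 without WT 1 and -1.56 among library numbers 4 to 8. The checkpoint kinases Bub1, Bub1b and Ttk had values of -2.86, -3.29 and -4.94, and separase, Espl1, one of -3.28, none of which passed.

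Cdc20, the APC/C activator, gave no stable direction. Its mean level in WT was 83.8 CPM per kilobase, the highest of this group, and 16.2 without WT 1, below Cdca3 at 31.0. It was at 535, 7.99, 71.7 and 11.1 CPM in WT and at 16.9, 36.9 and 52.1 CPM as lowest, median and highest in KO. WT 2 and WT 4 lay below every KO library, and WT 1 and WT 3 above. The fold change was -2.14 (adjusted p = 0.282) with all libraries and 0.23 without WT 1. Of its exons, 53 bases overlap Elovl1 on the other strand.

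No centromere or kinetochore gene passed (0 of 6), and the fold changes ranged from -3.96 for the kinetochore motor Cenpe to -1.07 for Ndc80. Cenpa, the histone H3 variant that marks centromeres, had the highest level per kilobase of the 6. It was at 739, 21.4, 108 and 33.2 CPM in WT and at 84.3, 90.8 and 170 CPM as lowest, median and highest in KO. WT 2 and WT 4 lay below every KO library. The fold change was -1.08 (adjusted p = 0.526) with all libraries and 0.98 (adjusted p = 0.209) without WT 1. Nuf2, Spc25 and Cenpf, all of the outer kinetochore, had values of -3.46, -3.58 and -2.90, and that of Spc25 was -2.54 without WT 1.

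Among the spindle motors and microtubule proteins, 3 of 9 tested were lower. Aurka, the kinase of spindle poles (chromosome 2, 172356190 to 172370535, minus strand), was at 191, 71.1, 51.1 and 111 CPM in WT and at 12.5, 20.8 and 36.1 CPM as lowest, median and highest in KO. The log2 fold change was -2.26 (SE 0.42, adjusted p = 0.0184). Kif22, a chromosome-bound kinesin (chromosome 7, 127027729 to 127042471, minus strand), was at 146, 92.2, 76.8 and 137 CPM in WT and at 10.2, 24.2 and 54.1 CPM in KO. Its log2 fold change was -2.05 (SE 0.43, adjusted p = 0.0285). For both, every WT library lay above every KO library, and KO 1 was the lowest. Stmn1, stathmin, which destabilises microtubules (chromosome 4, 134468320 to 134473843, plus strand), had a mean level of 87.2 CPM per kilobase in WT, the highest of all 43 genes, and of 59.2 without WT 1, below Hmgb2 at 71.1. It was at 329, 118, 66.9 and 156 CPM in WT and at 22.7, 38.1 and 51.0 CPM in KO, without overlap. Its log2 fold change was -2.16 (SE 0.42, adjusted p = 0.0223).

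The other 6 tested genes of this group did not pass. Their fold changes were -6.12 for the bipolar spindle kinesin Kif11, -3.80 for Nusap1, -3.73 for the chromokinesin Kif4, -3.17 for the microtubule depolymerase Kif2c, -2.86 for the AURKA activator Tpx2 and -1.57 for Kif15. Kif4 shares 832 exon bases with Pdzd11 on the other strand. Hmmr, a microtubule-binding protein of the spindle poles, was not tested. It had 547 counts in the 4 WT libraries, 0 of them in WT 1, and 2 counts in the 6 KO libraries. The ratio of its depth-scaled counts was 486 (95% interval 134 to 4024, counting error only).

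In the central spindle and cytokinesis group, 1 of 4 was lower. Anln, anillin, the scaffold of the contractile ring (chromosome 9, 22332012 to 22389188, minus strand), was at 9.06, 3.65, 7.19 and 2.96 CPM in WT, 878 counts in all, and at 0 counts in all 6 KO libraries. Set against the limit of 3 counts over the KO group that a count of 0 allows, it was at least 520-fold lower (adjusted p = 0.00917). This bound covers counting error only, since amplified reads are not independent molecules. Kif20a, the kinesin that carries the passenger complex to the midzone, had the highest level per kilobase of the 4. It was at 7.42, 83.5, 38.8 and 83.3 CPM in WT and at 0, 5.62 and 21.1 CPM as lowest, median and highest in KO. WT 1 lay within the KO range and the other WT libraries above it. The fold change was -2.94 (adjusted p = 0.232). It shares 1259 of its 3796 exon bases with Cdc23 on the other strand. Prc1, the microtubule bundler of the midzone, had a value of -3.71, and Kif23, the kinesin of the centralspindlin complex, one of -2.42, and neither passed. Exons on opposite strands also overlap between Prc1 and Rccd1, Ncapg and Lcorl, Nusap1 and Oip5, Ube2c and Tnnc2, and Cdca8 and 9930104L06Rik, so these counts are uncertain to that extent.

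Among the 7 genes of chromosome structure, 1 was lower. Hmgb2, a DNA-bending protein of proliferating cells (chromosome 8, 57511907 to 57515999, plus strand), was at 385, 193, 144 and 304 CPM in WT and at 35.5, 76.8 and 112 CPM as lowest, median and highest in KO. The log2 fold change was -1.78 (SE 0.36, adjusted p = 0.0263), and the groups did not overlap. Top2a, topoisomerase II alpha, was at 3.67, 62.6, 37.5 and 68.1 CPM in WT and at 0.127, 2.33 and 12.4 CPM in KO. Only WT 1 overlapped with KO. The fold change was -3.51 (adjusted p = 0.110) with all libraries and -3.89 (adjusted p = 0.0317) without WT 1. Mki67, which encodes the proliferation marker Ki-67, was at 0.121, 0.941, 1.68 and 1.04 CPM in WT and at 0, 0.0326 and 0.634 CPM in KO. It had 138 counts in all WT libraries and 33 in all KO libraries, 0.0940 mean CPM per kilobase in WT, and a fold change of -2.78 (adjusted p = 0.318). Only Cenpf had a lower level per kilobase in WT among the 43 genes.

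Smc4, a core subunit of condensin (chromosome 3, 69004738 to 69034623, plus strand), went the other way. It was at 5.07, 0.542, 3.09 and 1.58 CPM in WT and at 19.9, 17.2, 27.1, 10.7, 5.94 and 10.6 CPM in KO 1 to 6. Every KO library lay above every WT library, which held for 2.59% of all genes tested. The log2 fold change was 2.56 (SE 0.72, adjusted p = 0.0918). The other condensin genes had values of -1.34 for Smc2, the partner of SMC4 in the complex, -3.51 for Ncapg and -1.08 for Ncapd2, and none passed.

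**Figure D3:**
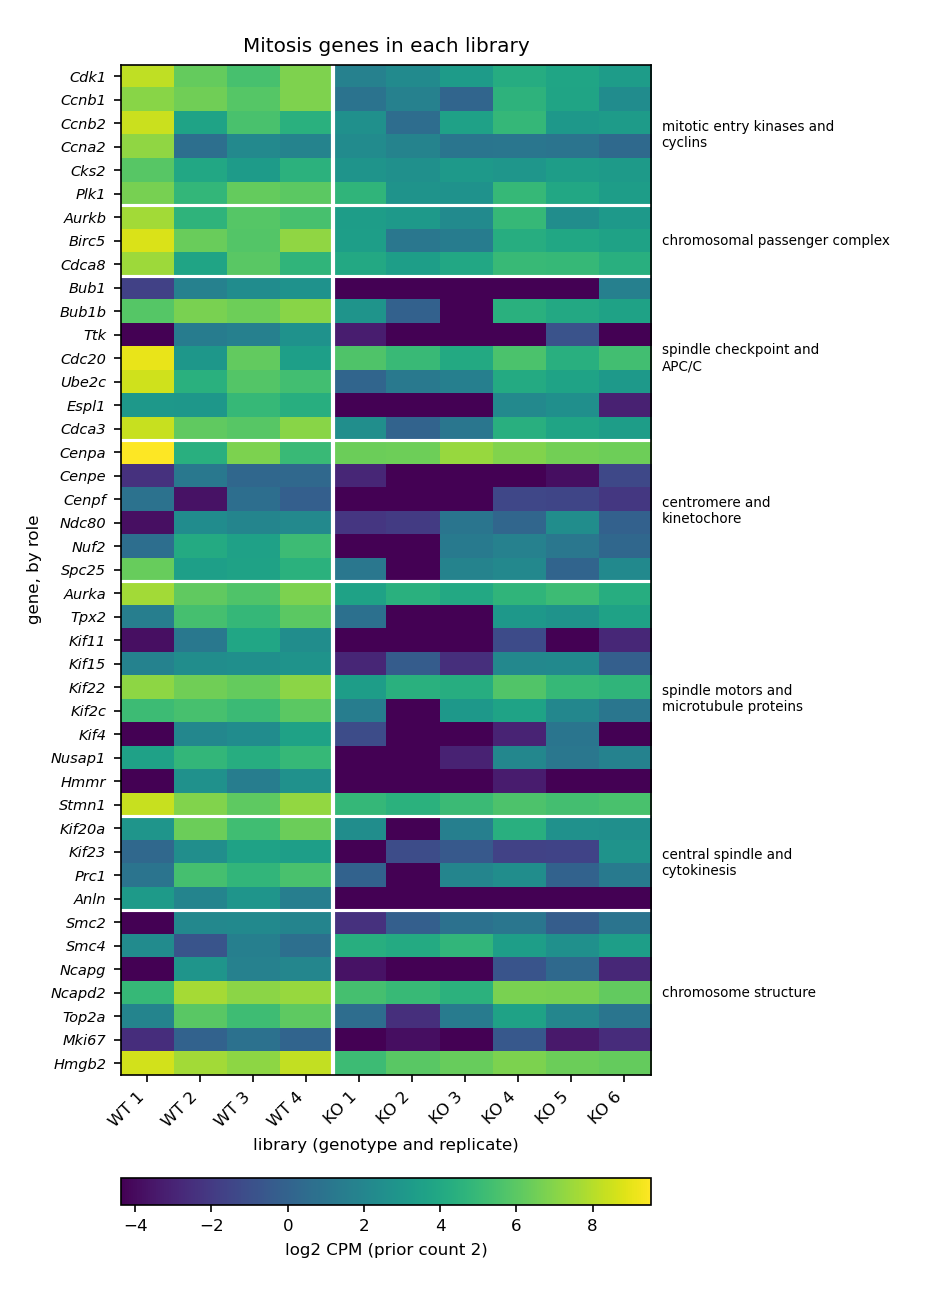
Log2 CPM (prior count 2) of the 43 genes in each library, in rows by role, with WT columns left of the white line. WT 1 is high for some genes and low for others of the same role, KO 1 to 3 are darker than KO 4 to 6 for most rows, and Smc4 is brighter in KO.

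WT 1 differed from the other WT libraries gene by gene. Of the 42 genes tested, it was the highest WT library for 21 and the lowest for 19. The direction followed mRNA length, taken from the principal transcript of each gene in GENCODE M21. Among the 22 genes with mRNAs of 692 to 2965 bases, WT 1 lay above all 3 other WT libraries for 17. Among the 21 genes with mRNAs of 3026 to 11130 bases, it lay below all 3 for 16. The median log2 ratio of WT 1 to the mean of the others was 1.69 for the shorter mRNAs and -2.55 for the longer. Over the 10850 tested genes with such a length, divided at the same point, the medians were 0.29 and -1.27. The direction by length was thus seen over the whole table and is not particular to the mitosis genes. Spearman's rho between length and that ratio was -0.62 over the 43 genes, as a description, since all points share the same 4 libraries. Over the 10850 tested genes with an mRNA length it was -0.36. By the exon length in the count tables it was -0.48 over the 43 genes and -0.29 over all 14214 genes tested. Cdk1, Smc4, Anln and Cenpf are the longer mRNAs with WT 1 above the other WT libraries. The difference between KO 1 to 3 and KO 4 to 6 had a rho with mRNA length of -0.02 over the 43 genes and -0.16 over the 10850 genes.

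**Figure D4:**
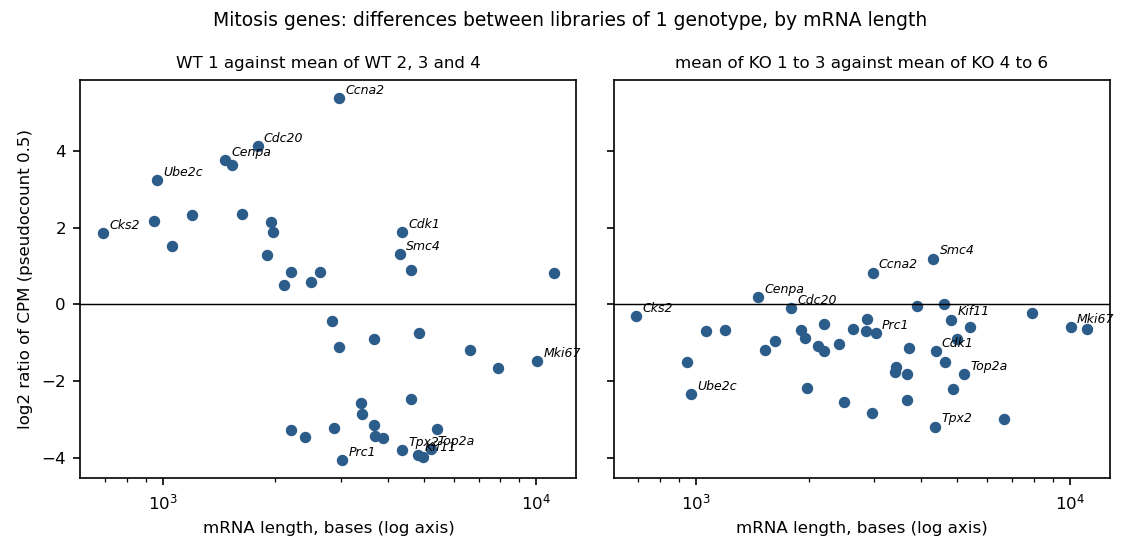
Log2 ratio of CPM (pseudocount 0.5) against mRNA length on a log axis, each point 1 of the 43 genes; left, WT 1 over the mean of WT 2 to 4, and right, the mean of KO 1 to 3 over the mean of KO 4 to 6. On the left most shorter mRNAs lie above 0 and most longer ones below, and on the right most genes lie below 0 at all lengths.

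The genes lower in KO were also counted by length, with no test of the difference. With all libraries, 7 of 22 shorter and 2 of 20 tested longer mRNAs were lower in KO, and the median fold changes were -2.99 and -3.11. By exon length, which all tested genes have, 6 of 22 shorter and 3 of 20 longer genes (over 4819 bases) were lower, against 3.58% of 9223 shorter and 1.08% of 4991 longer genes over the whole table. Among the libraries numbered 4 to 8 (3 WT and 3 KO), which leave out WT 1, 14 of 43 genes were lower, against 7.18% of all genes, and these were 6 of 22 shorter and 8 of 21 longer mRNAs. The median fold change there was -2.19, and 40 of 43 were negative. In 31 of 43 every KO library lay below every WT library, against 22.8% of all genes. Of the 9 genes lower with all libraries, 5 were among these 14: Cdk1, Ccnb1, Birc5, Cdca3 and Anln. The other 9 of the 14 were Bub1b, Nuf2, Tpx2, Kif2c, Nusap1, Hmmr, Kif20a, Prc1 and Top2a. Aurka, Kif22, Stmn1 and Hmgb2 had fold changes of -1.43, -1.40, -1.23 and -1.17 there, with adjusted p between 0.0692 and 0.0832. Cdc20 and Cenpa had values above 0 there, 0.29 and 0.91.

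**Figure D5:**
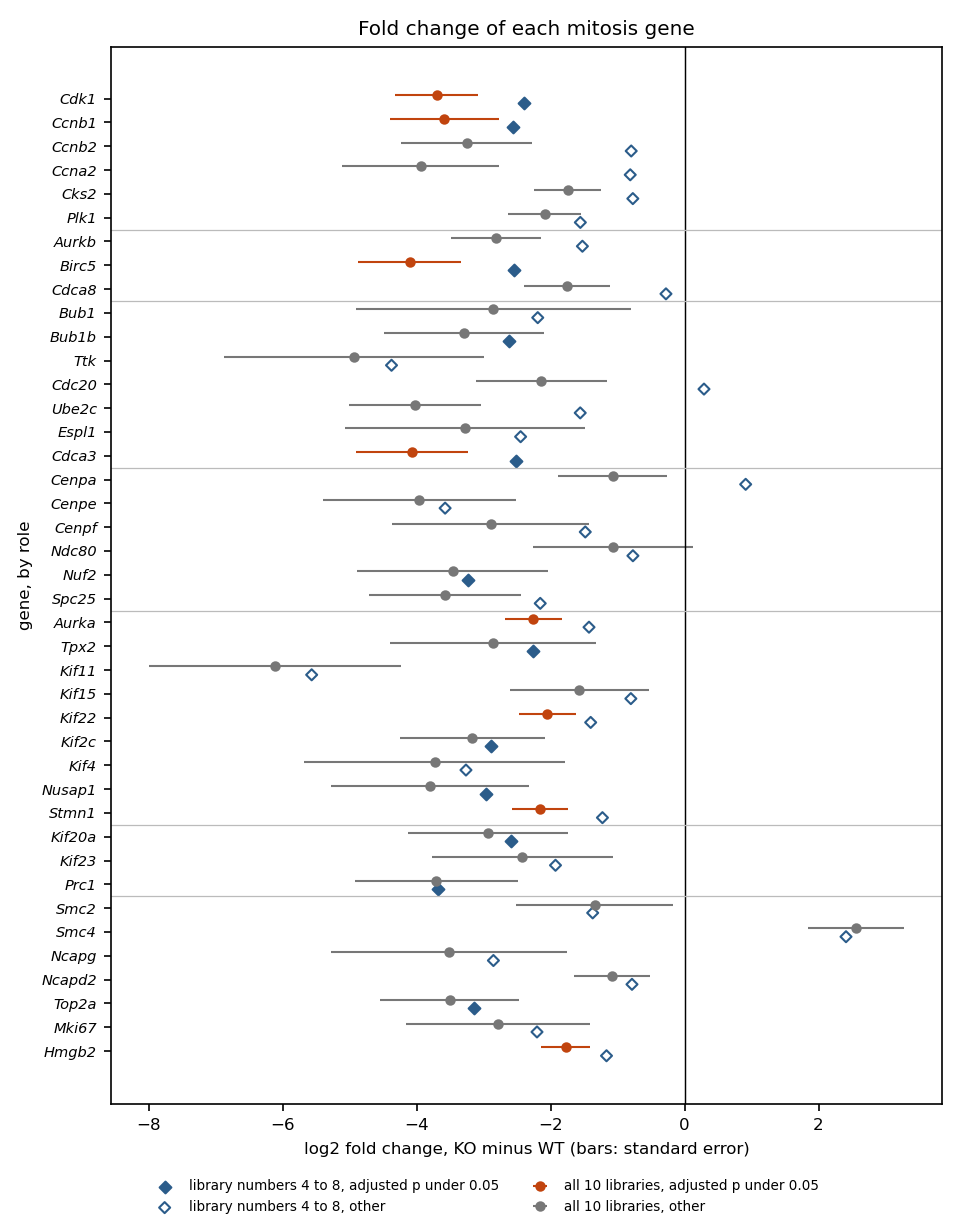
Log2 fold change, KO minus WT, of 41 genes by role; circles with standard errors use all 10 libraries, and diamonds the libraries numbered 4 to 8, filled where the adjusted p is under 0.05. Anln, with 0 counts in KO, and Hmmr, not tested with all libraries, are left out; Smc4 alone lies above 0 in both comparisons, and Cdc20 and Cenpa lie above 0 only among libraries 4 to 8.

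The KO libraries themselves fell into 2 levels. The mean log2 CPM of the 43 genes was 0.34, -0.55 and 0.35 in KO 1 to 3 and 2.20, 1.75 and 1.54 in KO 4 to 6. For 18 genes every one of KO 1 to 3 lay below every one of KO 4 to 6, and for 1, Smc4, every one lay above, against 14.7% and 17.2% of all genes tested. Ncapd2, a condensin subunit, was at 43.6, 32.3 and 23.3 CPM in KO 1 to 3 and at 106, 103 and 71.6 CPM in KO 4 to 6. Bub1b was at 6.95, 0.913 and 0 CPM, and then at 22.2, 16.3 and 12.3 CPM. Cenpa and Cdc20 did not show this step: their means were 114 and 34.2 CPM in KO 1 to 3 and 100.1 and 36.8 CPM in KO 4 to 6. The number of mitosis genes with 0 counts was 10, 17 and 13 in KO 1 to 3, 4 in each of KO 4 to 6, 5 in WT 1 and 0 in the other WT libraries. KO 4 was the highest KO library for 24 of 42 genes.

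Other genes of the division cycle were read from the same fit. Among 72 tested other mitosis genes, 2 were lower and none higher, with a median fold change of -1.91. That count is near the 2.70% of all genes lower. The fold change was negative for 68 of the 72, however, against 54.3% of all genes. For 20 of the 72 every KO library lay below every WT library, against 6.31% of all genes. The 2 lower genes were the CDK phosphatase Cdkn3 (-4.20, adjusted p = 0.0154) and the checkpoint gene Mad2l1 (-1.88, adjusted p = 0.0424). Among 42 DNA replication genes, the fold change was negative for 35, and for 16 every KO library lay below every WT library. Of the 42, 6 were lower, with a median of -1.22. The leading 3 by size were the thymidine kinase Tk1 (-2.80), the primase Prim1 (-2.41) and the helicase cofactor Cdc45 (-2.35). Among 15 genes for the core of the APC/C and Fzr1, 1 was lower, Cdc27 (-2.17, adjusted p = 0.0368), and the median was 0.08. Among 13 cohesin genes and loaders none passed, with a median of -1.20, and the lowest p belonged to Cdca5, sororin (adjusted p = 0.0520). Among 25 regulators of mitotic transcription 1 was lower, E2f2 (-1.76, adjusted p = 0.0298), with a median of -0.07. The counts of 0 or 1 in these last 3 lists are no result about the lists. None of these lists held a gene that was higher in KO by the test.

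Within genotypes, the 10 genes outside the list whose levels followed the mean of the mitosis genes most closely were Ankrd27, Pole, Themis2, Zfp142, Myadm, Nmd3, Axl, Cyfip1, Fanca and Timeless. The likeness is Pearson's r of log2 CPM over the 10 libraries after each genotype's mean was subtracted, and it ran from 0.91 for Timeless to 0.98 for Ankrd27 among 8072 genes. The points share library depth and the 2 levels of the KO libraries. By the same measure, each mitosis gene was set against the mean of the others: Nusap1 followed it most closely (r = 0.91), then Tpx2 (0.83), while Smc4 (-0.49) and Ccna2 (-0.41) ran against it.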

How the data were processed

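Total RNA from 10 sorted CD4 T cell samples went through SMART-seq v4 amplification and paired-end sequencing, per the labels' protocols. The deposited files hold raw counts per gene. Per the file headers, the authors ran featureCounts 1.6.2 on read pairs against GENCODE M17, without a strand option and without multi-mapping reads. STAR and FastQC are named in the submitters' processing notes, with versions not given in the sources used here. Depth was 31939816 to 55784453 counts per library, so counting error is small beside the spread between libraries for all but the lowest genes.

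Counts were scaled with TMM factors, filtered with filterByExpr and compared with edgeR's quasi-likelihood test (edgeR 4.0.16, limma 3.58.1, R 4.3.3) with genotype as the only term, 6 KO against 4 WT, in 1 fit over all genes with Benjamini-Hochberg adjustment at 0.05. Fold changes are log2, KO minus WT, and each SE was obtained by dividing the fold change by the root of its F statistic. Scripts were tested on simulated data. No pair of libraries agreed within sampling noise. Alternatives were other scalings and filters, DESeq2 1.42.0, limma-voom, a replicate block, library number sets and leaving out each library. The members, lists and alternatives were chosen with earlier results of these data known, and the division by mRNA length after its values were seen. Values by library (lowest, median and highest for KO) are given for genes that passed, the gene of each role highest per kilobase, Plk1, Top2a and Mki67, and, chosen after its values were seen, Smc4. For related lists the text names up to 3 genes that passed, largest first, or else the lowest p, and for marker lists the 2 most abundant.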

Additional observations from a re-analysis of the deposited data

Results flagged for a closer look

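Single libraries stood apart from the rest of their group, by Dixon's test at 95%, in 18 of 88 groups examined (20.5%). A rate of about 1 in 20 by chance would hold only for independent groups of normally distributed values. These groups are CPM values from the same libraries, so they are not independent. Some genes also lie at the limit of detection. For Hmmr and Bub1 in KO a single library held counts, which sets it apart whatever its level. The percentage therefore cannot be read as an excess over chance. In WT the library apart was WT 1 in all 6 cases and was the highest: Ccnb2 at 340 CPM, Ccna2 at 152, Cdc20 at 535, Ube2c at 374, Cenpa at 739 and Spc25 at 79.1 CPM. These 6 genes have mRNAs in the shorter class described above.

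In KO the library apart was the highest in all 12 cases. KO 4 was apart for Aurkb at 30.4 CPM, Kif11 at 0.381, Hmmr at 0.0507, Kif20a at 21.1, Top2a at 12.4 and Mki67 at 0.634 CPM. KO 5 was apart for Ttk at 0.528, Ndc80 at 5.33 and Kif4 at 1.98 CPM. KO 6 was apart for Bub1 at 3.13, Cenpe at 0.338 and Kif23 at 6.67 CPM, and Bub1 had 0 counts in the 5 other KO libraries.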

How the results depend on the processing

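The fold change was negative for 41 of 42 mitosis genes under TMM and under each of the 5 other scalings. Of the 9 genes lower in KO, all 9 also passed with relative log expression factors, upper-quartile factors, T cell receptor complex scaling, DESeq2, limma-voom, a minimum mean of 1 CPM and the library number set as a term, and 8 of 9 with total counts, without immunoglobulin genes and without the filter. The number lower was 23 with scaling to T cell receptor complex genes, 22 with DESeq2, 14 with limma-voom, 14 among library numbers 4 to 8, and 2 to 13 when 1 library was left out; 1 was higher with DESeq2 and 0 to 1 when 1 library was left out. Over all genes, 384 were lower and 61 higher. The number lower was 223 without immunoglobulin genes, 1862 with receptor scaling, 1600 with DESeq2, 680 with limma-voom, 79 among numbers 1 to 3, 1033 among 4 to 8, and 143 to 1201 when 1 library was left out. The number higher was 17 with receptor scaling, 39 without the filter, 697 with DESeq2, 204 with limma-voom, 116 with the set as a term, 316 among numbers 1 to 3, 121 among 4 to 8, and 10 to 443 when 1 library was left out. The median fold change of the mitosis genes was -3.96 with receptor scaling, which moved the median of all genes by -0.80, and upper-quartile factors moved it by -0.14. Reversed fold changes were Cdc20 at 0.23 without WT 1 (-2.37 to 0.23 over left-out libraries) and 0.29 among 4 to 8; Cenpa at 0.98 without WT 1 (-1.30 to 0.98), 0.91 among 4 to 8, 0.20 with limma-voom and 0.62 with the replicate block; Ndc80 at 0.042 with the set as a term and 4.90 among numbers 1 to 3; Smc2 at 0.056 with limma-voom and 8.34 among 1 to 3; and Ncapd2 at 0.16 among 1 to 3. Numbers 1 to 3 hold 1 WT library, assumed to vary like the 3 KO libraries. The causes of these changes were not tested.

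The groups share replicate numbers, and the labels do not say whether a number marks a shared animal. Deviations of same-numbered libraries correlated at 0.29, -0.25, -0.22 and 0.30. These values cannot decide it, since they go with the library number sets, as given next. WT 1 correlated at 0.29 to 0.32 with KO 1 to 3 and at -0.40 to -0.26 with KO 4 to 6, and each of WT 2 to 4 was positive with KO 4 to 6 and negative with KO 1 to 3. With the replicate block 0 mitosis genes and 0 genes in all were lower, and 0 were higher. For Mki67, Hmmr, Anln and other genes with 0 counts in a KO library, a level of 0 is a limit of detection. Whether depth or the RNA input sets that limit was not tested.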
